A study of Mus musculus with 30 samples.

Results

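The genes described here carry calcium into, within and out of the sarcoplasmic reticulum of muscle. They are the micropeptide genes Sln, Pln, Mrln and Strit1, the pump genes Atp2a1 and Atp2a2, the calsequestrin genes Casq1 and Casq2, the release channel gene Ryr1 and the cytosolic buffer gene Pvalb. These 10 genes were selected by name from the 56748 genes of the count table, with the difference in Sln between nontreated HSA-LR mice and WT mice already known. For that contrast their values are therefore given as a description, without a test.

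Muscle contracts when calcium leaves the sarcoplasmic reticulum through the ryanodine receptor, encoded by Ryr1, and relaxes when SERCA pumps return it. Sarcolipin, phospholamban and myoregulin, encoded by Sln, Pln and Mrln, are short membrane peptides that bind SERCA and lower its activity, and DWORF, encoded by Strit1, counters this inhibition. SERCA1 is the main pump of fast fibres and SERCA2 that of slow fibres and heart. Calsequestrins hold calcium inside the store, and parvalbumin binds it in the cytosol of fast fibres.

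Quadriceps of 30 mice gave the polyadenylated RNA that was sequenced. WT mice were of the FVB/N strain (n = 5). The other 25 were HSA-LR20b mice, which express in skeletal muscle a human skeletal actin transgene with an expanded CTG repeat, so the transgene sets them apart from WT in every group. Injections into the tail vein began at 8 weeks of age, and muscle was taken 2 weeks after the last one.

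Nontreated HSA-LR mice (NT, n = 8) received nothing. pacDNA-L9, a bottlebrush polymer that carries the repeat-binding locked nucleic acid oligonucleotide L9, was given in 3 doses of oligonucleotide, with higher doses split over repeated injections. These were 5.3 mg/kg in 4 mice, 21.2 mg/kg in 3 mice and 42.4 mg/kg in 3 mice. All 3 mice at 42.4 mg/kg were classed as female, against 4 of 8 NT mice and 4 of 5 WT mice. Control agents were L9 without polymer (free L9, n = 3, at 5.3 mg/kg), polymer without oligonucleotide (Brush, 40 nmol, n = 2) and polymer with a scrambled oligonucleotide (pacDNA-Scr, n = 2, also at 5.3 mg/kg). Single mice are named by group with a number or letter, and the WT mouse whose count column no label names exactly is called the unnumbered WT mouse.

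The deposited raw counts summed to 13605309 to 26956558 per library, with a median of 20141850.5. Levels are given in CPM, counts scaled by library size and TMM factors, and group levels as mean ± SD. Differences are log2 fold changes with their SE from edgeR's quasi-likelihood model over all 30 libraries, and padj is the Benjamini-Hochberg adjusted p over the 17518 genes with enough counts to test. All 10 genes of the set passed that filter.

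Several libraries stood apart before any group was compared. The deposit was made in 2 sets with their own numbering. Set 2 holds 6 libraries: free L9 C, 21.2 mg/kg C, both 5.3 mg/kg C and D, and NT 7 and 8. These 6 lay at 152 or higher on the first principal component of expression, which held 59.9% of the variance, and the 24 libraries of set 1 lay at −39.8 or lower. All 37 mitochondrial genes read 0 in 5 of the 6, the exception being free L9 C. Tnnc2, the fast-fibre troponin C gene, named after its values were seen, read 5925 to 8522 CPM in set 2 and at most 0.371 CPM in set 1. WT, Brush, pacDNA-Scr and the highest dose are absent from set 2.

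Within set 1, 9 libraries carry names of another form in the count table, a group and a running number alone. They are the unnumbered WT library, NT 6, Brush B, pacDNA-Scr B, free L9 A and B and all 3 at 42.4 mg/kg. At an equal depth of 13605309 reads they held 14434 to 18634 detected genes, against 18676 to 20347 in the other 15 libraries of set 1. Free L9 B was the lowest, with 14434 genes and 22.3% of its counts on mitochondrial genes. All libraries at 42.4 mg/kg carry such names, so a shift that goes with the naming form can be estimated for that dose only from the other groups.

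Skeletal muscle identity was checked first. Acta1 was the most abundant of 5 skeletal muscle markers, which summed to 42161 CPM in free L9 B and 60404 CPM or more in each WT mouse. Myh4, the myosin of the fastest fibres, led 8 fast-fibre markers, whose sum ran from 64847 to 138104 CPM over HSA-LR mice. Tnnc2 is in this list, so the sums of the deposited sets are not on 1 scale. They ran from 64847 to 105284 CPM in HSA-LR mice of set 1 and from 93928 to 138104 CPM in set 2. Of 6 cardiac and atrial markers, Myl7 was at 0 in 29 libraries, Nppa in 22 and Tnni3 in 8. Their summed level was 4.53 to 121 CPM in HSA-LR mice, with Myh6 as the most abundant.

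Of the micropeptide genes, Sln differed by far more than its spread between NT and WT mice. The WT values were 2.33, 0.337, 1.65 and 1.45 CPM in WT 1 to 4 and 5.39 CPM in the unnumbered WT mouse. NT mice ranged from 38.1 to 108 CPM with a median of 75.9. The groups did not overlap, and the lowest NT mouse lay well above the highest WT mouse. The means were 74.7 ± 26.1 (SD, n = 8) and 2.23 ± 1.91 CPM (SD, n = 5), a log2 fold change of 5.06 (SE 0.49).

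As a description only, 1 of the 10 genes, Sln, was among the 4.97% of all tested genes with an adjusted p under 0.05 in that contrast, 3.44% with higher and 1.54% with lower levels in NT. It was the 1 gene of the set whose NT mice all lay above every WT mouse, as did 3.08% of tested genes. Since the set was chosen with this contrast in view, both counts were fixed by the choice and test nothing. The lowest library, WT 2, held 6 Sln counts and WT 1 held 44, where 3 counts, the smallest number taken as detectable, correspond to 0.111 to 0.221 CPM across libraries.

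**Figure D1:**
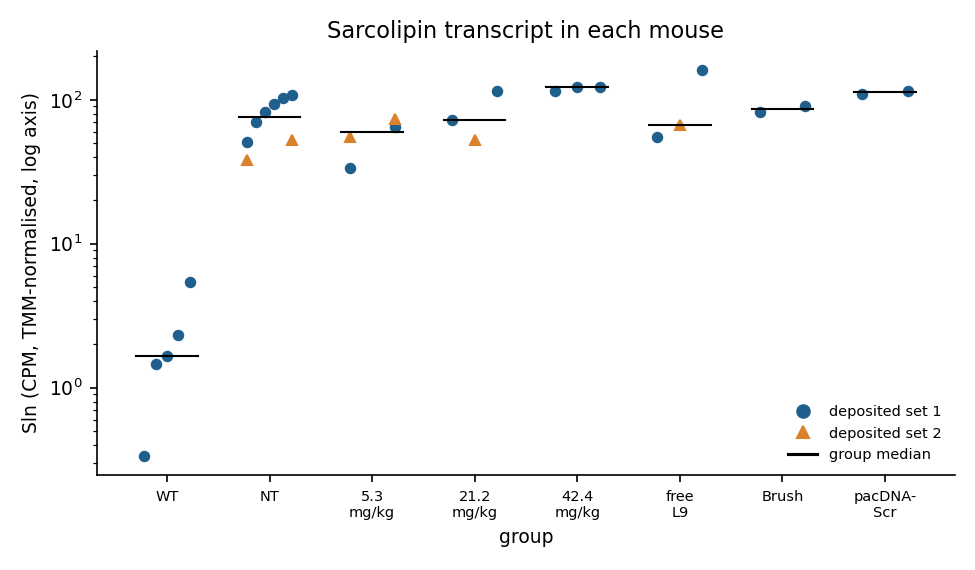
Sln in CPM on a log axis for each of the 30 mice by group, with circles for deposited set 1, triangles for set 2 and a line at the group median. WT mice lie at 5.39 CPM or lower and HSA-LR mice of all 7 groups at 33.7 CPM or higher.

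Sln remained far above the WT range in every treated HSA-LR mouse. The values were 33.7, 64.7, 55.1 and 73.5 CPM at 5.3 mg/kg and 72.2, 115 and 52.7 CPM at 21.2 mg/kg. At 42.4 mg/kg they were 115, 122 and 122 CPM. All 3 mice of the highest dose lay above the highest NT mouse, as did those of 3.95% of tested genes. The log2 fold change against NT was 0.68 (SE 0.43, padj = 0.463) and was not past the threshold in edgeR. It was 0.49 within set 1 and 0.03 with a covariate for the 9 libraries of the other naming form.

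Among the control agents, Sln read 161, 55.2 and 66.4 CPM with free L9 and 90.0 and 81.7 CPM with Brush. With pacDNA-Scr it read 109 and 116 CPM, and both mice lay above all NT mice, as did those of 1.33% of tested genes. Its log2 fold changes against NT were 0.59 (SE 0.50) for pacDNA-Scr, 0.20 (SE 0.51) for Brush and 0.34 (SE 0.43) for free L9, and at the lower doses −0.40 (SE 0.41) and 0.10 (SE 0.44). Without free L9 A, the free L9 value turned to −0.31. The value at 21.2 mg/kg turned to −0.26 without mouse B and was 0.33 without C, and that at 5.3 mg/kg was −0.21 without A and −0.55 without D. None of these passed the threshold, and all 6 comparisons share the same NT mice. Between the deposited sets, the NT mice averaged 84.5 CPM in set 1 and 45.2 CPM in set 2. Sln was also lower in set 2 at 21.2 mg/kg (mean 93.6 CPM in set 1, 52.7 CPM in the 1 mouse of set 2). With free L9 the values were 108 CPM in set 1 and 66.4 CPM in the 1 mouse of set 2. The mice at 5.3 mg/kg went the other way, at 49.2 and 64.3 CPM.

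The coding sequences of the 4 micropeptide genes are shown because the shortness of these reading frames sets the SERCA regulators apart from the other genes of the set. They were read from GRCm39 with the GENCODE vM39 annotation, 5′ to 3′ on the coding strand, with start and stop codons in capitals.
Sln: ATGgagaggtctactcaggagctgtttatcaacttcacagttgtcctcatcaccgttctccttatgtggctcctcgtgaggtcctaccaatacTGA
Pln: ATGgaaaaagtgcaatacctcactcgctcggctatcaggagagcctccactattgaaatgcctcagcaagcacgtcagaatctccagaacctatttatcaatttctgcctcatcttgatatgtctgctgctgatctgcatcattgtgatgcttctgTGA
Mrln: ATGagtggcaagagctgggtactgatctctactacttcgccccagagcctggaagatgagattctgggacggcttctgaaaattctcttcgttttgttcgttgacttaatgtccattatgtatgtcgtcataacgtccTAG
Strit1: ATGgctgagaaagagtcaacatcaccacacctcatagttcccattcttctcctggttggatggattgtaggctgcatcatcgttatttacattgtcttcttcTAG
Sln (chr9:53742537-53761846, plus strand) encodes 31 codons before the stop, Pln (chr10:53199622-53223512, plus) 52, Mrln (chr10:70040463-70055541, plus) 46 and Strit1 (chr3:63388516-63391389, minus) 34. The exons of Sln and Mrln overlap no annotated gene on the other strand.

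Mrln, the myoregulin gene, was detected in every mouse. WT mice ranged from 26.1 to 32.9 CPM, and NT mice from 16.0 to 27.0 CPM with a median of 23.8. The ranges overlapped, and the log2 fold change of NT against WT was −0.40 (SE 0.19). Of the free L9 mice, A read 44.1 CPM and C 29.6 CPM, both above all NT mice, and B lay inside the NT range, a log2 fold change against NT of 0.54 (SE 0.22) with an unadjusted p of 0.0220 and a padj of 0.452 in edgeR. Without free L9 A, the highest of these mice, it was 0.26. At 5.3 mg/kg its log2 fold change was 0.01, and −0.59 within set 1. In the other treated groups Mrln ran from 12.1 CPM in 5.3 mg/kg B to 36.0 CPM in pacDNA-Scr A, and none passed the threshold.

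Pln was close to the detection limit, with 5 to 75 counts per library. WT mice read 0.257 to 1.10 CPM. The NT mice of set 1 read 0.617 to 0.967 CPM, whereas NT 7 and NT 8 of set 2 read 3.02 and 2.72 CPM. The log2 fold change of NT against WT was 1.20 (SE 0.59) over all libraries and 0.47 within set 1. Treated mice of set 1 read 0.281 to 1.65 CPM. Free L9 C, also of set 2, had the highest level at 5.90 CPM, and without this mouse the log2 fold change of free L9 against NT turned from 1.08 (SE 0.64) to −0.12.

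On the opposite strand, Cep85l and Gm47644 cover 45.9% of the exon bases of Pln, and the counting options for strand are not given in the sources used here. Cep85l itself read 41.1 CPM in NT 7 and 94.0 CPM in NT 8, and 42.4 to 83.8 CPM in the NT mice of set 1. WT mice read 25.9 to 34.4 CPM, and the log2 fold change of Cep85l in NT against WT was 0.94 (SE 0.29, edgeR padj = 0.0633), and 0.90 within set 1 (edgeR padj = 0.0879), neither past the threshold. Reads of Pln and of its partner cannot be told apart without strand, so Pln values are uncertain.

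Strit1 was barely detected. It was at 0 in 4 of 5 WT mice and in 7 of 25 HSA-LR mice, and no library held more than 32 counts. NT mice ranged from 0 to 0.650 CPM, and the highest level of all was 1.24 CPM in 42.4 mg/kg C, so the groups overlapped near the limit of detection. Gm37279 on the opposite strand covers 24.1% of its exon bases. Differences of this gene between groups were not resolved, with an SE of 1.22 or more on every log2 fold change. Counts also spread within groups, as Brush A held 0 and Brush B 23.

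Among the pumps, Atp2a1 was the most abundant gene of the set per length of exon, and its level was alike in WT and NT mice. It read 28074 ± 4076 CPM in WT (SD, n = 5) and 27918 ± 2571 CPM in NT (SD, n = 8). The ranges overlapped, with a log2 fold change of −0.01 (SE 0.16). Treated mice ranged from 19971 to 32876 CPM except free L9 B at 12859 CPM, and the log2 fold changes of the 6 treated groups lay between −0.19 and 0.01. The lowest, that of free L9, ran from −0.47 to 0.09 with each mouse left out in turn.

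Reads of Atp2a1 may be shared with Rabep2, which covers 17.6% of its exon bases from the opposite strand. Rabep2 read 7830 to 11860 CPM in the 6 libraries of set 2 and 4.32 to 154 CPM in the HSA-LR mice of set 1. WT mice read 11.1 to 17.3 CPM. Rabep2, named after its values were seen, was higher in NT than in WT mice within set 1, with a log2 fold change of 2.85 (SE 0.54, edgeR padj = 0.00304), and over all libraries it was 7.57 (SE 2.25), not called (edgeR padj = 0.0519). Atp2a1 levels themselves overlapped between the sets, at 12859 to 32273 CPM in the HSA-LR mice of set 1 and 25181 to 32876 CPM in set 2.

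Atp2a2, the slow-fibre pump gene, varied several-fold between mice of 1 group. WT mice read 115, 104, 107, 97.9 and 142 CPM. NT mice ranged from 77.6 to 395 CPM with a median of 121, and NT 3, 6, 7 and 8 lay above all WT mice, NT 5 among them and NT 1, 2 and 4 under them. The log2 fold change of NT against WT was 0.69 (SE 0.54), 0.31 within set 1 and −0.10 over WT 1 to 4 and NT 1 to 4 alone, so its sign depended on the mice.

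The treated groups held mice at both ends of this range. Atp2a2 read 129, 354, 423 and 508 CPM at 5.3 mg/kg and 421, 151 and 332 CPM at 21.2 mg/kg. At 42.4 mg/kg it read 108, 551 and 724 CPM. The spread at the highest dose covered nearly the full NT range and beyond, and its log2 fold change of 1.33 (SE 0.59) had an unadjusted p of 0.0340 and a padj of 0.344 in edgeR. It was 0.84 without 42.4 mg/kg C, 1.79 without A, and 0.64 with a covariate for the naming form of the libraries.

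The control agents gave the same split, with Atp2a2 at 355, 97.8 and 393 CPM for free L9, 74.9 and 532 CPM for Brush and 158 and 536 CPM for pacDNA-Scr. Their log2 fold changes against NT were 0.62 (SE 0.61), 0.73 (SE 0.70) and 0.93 (SE 0.69), none past the threshold. With each mouse left out in turn, the free L9 value ran from 0.31 to 1.00. In groups of 2 the sign rested on single mice, as the Brush value was −1.30 without Brush B and 1.54 without Brush A, and the pacDNA-Scr value was −0.21 without pacDNA-Scr B. The high mice, Brush B and pacDNA-Scr B, have the other naming form and Brush A and pacDNA-Scr A do not. Mouse and naming form cannot be told apart there. Anapc7 and other genes cover 30.3% of the exon bases of Atp2a2 on the opposite strand, and Anapc7 stayed within 8.42 to 32.3 CPM in all HSA-LR mice.

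**Figure D2:**
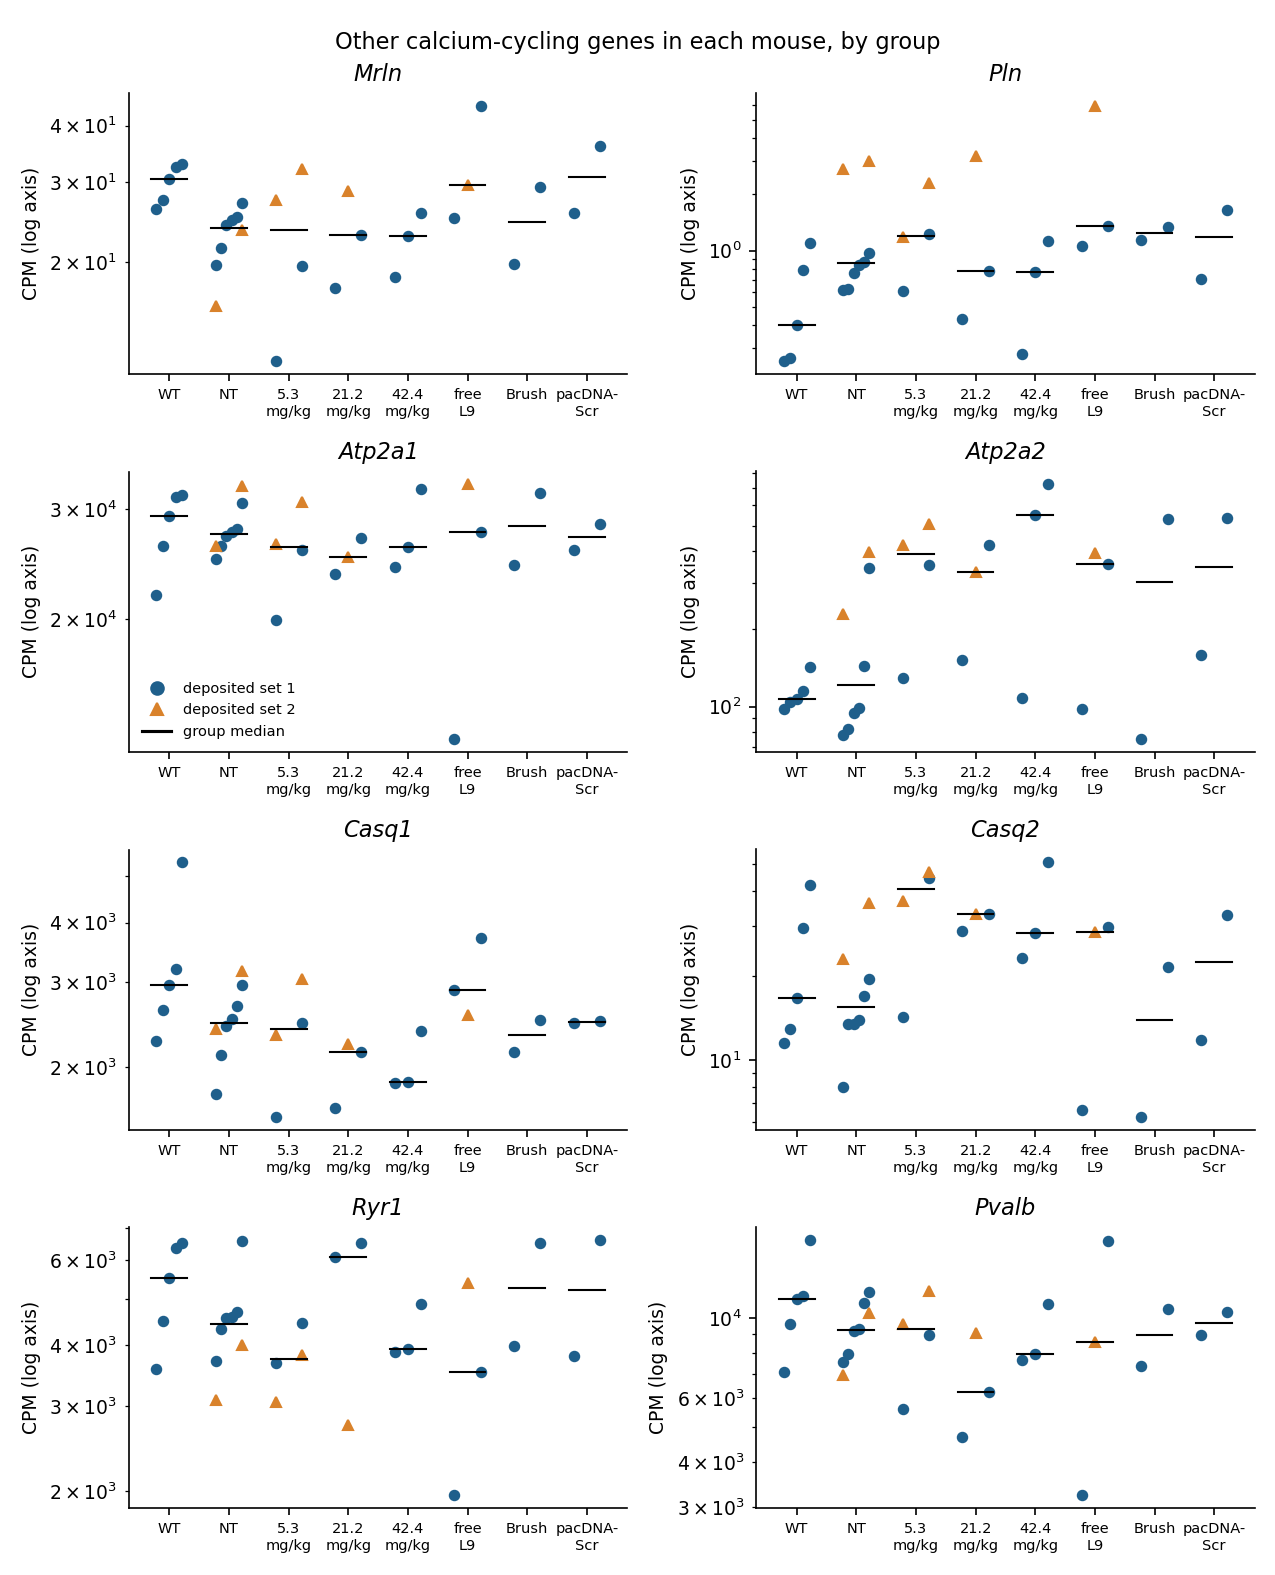
CPM on log axes of Mrln, Pln, Atp2a1, Atp2a2, Casq1, Casq2, Ryr1 and Pvalb in each mouse by group, with circles for deposited set 1, triangles for set 2 and lines at group medians. Atp2a2 splits into high and low mice within groups, from 74.9 to 724 CPM, and Pln is highest in free L9 C at 5.90 CPM.

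Among HSA-LR mice, a slow-fibre marker list moved with Atp2a2 from mouse to mouse. Its 8 genes, Myh7, Myl2, Myl3, Tnnt1, Tnni1, Tnnc1, Tpm3 and Myh7b, were led by Myh7, and none was at 0 in any library. Their summed level was 29.5 to 1426 CPM in NT mice with a median of 231, and 88.3, 146, 199, 204 and 302 CPM in WT mice. It was 168, 867, 1610 and 1845 CPM at 5.3 mg/kg, 1070, 227 and 1407 CPM at 21.2 mg/kg and 117, 1451 and 2026 CPM at 42.4 mg/kg. The HSA-LR mice with high Atp2a2 were those with a high sum. The sum was 1452, 77.1 and 1053 CPM with free L9, 22.0 and 1439 CPM with Brush and 219 and 1426 CPM with pacDNA-Scr. In WT mice the order differed, as WT 1 had the highest Atp2a2 of the numbered WT mice (115 CPM) and the lowest sum (88.3 CPM).

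Slow-fibre sums of the HSA-LR mice in set 1 formed a lower cluster of 11, up to 285 CPM, and an upper cluster of 8, from 766 CPM. The upper cluster held NT 6, 42.4 mg/kg B and C, free L9 A, Brush B and pacDNA-Scr B of the other naming form, besides 5.3 mg/kg B and 21.2 mg/kg A. Of that form, only 42.4 mg/kg A and free L9 B were in the lower cluster. The mice of set 2 lay at 608 CPM or higher. The part of naming form and set in this split was not tested. Correlations of log2 levels were therefore computed within each cluster and within set 2. This was added after the values were seen, and 40 relations were computed over the 10 genes, counting pooled ones that are not given. For Atp2a2 in the lower cluster Pearson's r was 0.917 (permutation p = 8e-05, padj = 0.00107) and Spearman's rho was 0.936 (permutation p = 5e-05, padj = 0.000667), with r = 0.881 without the 2 mice farthest from the median.

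The relation had the same sign elsewhere but did not pass adjustment. In the upper cluster r was 0.830 (n = 8, exact permutation p = 0.0113, padj = 0.0901) and rho was 0.738 (exact permutation p = 0.0458, padj = 0.167), with r = 0.702 without the 2 farthest mice. In set 2 r was 0.904 (n = 6, exact permutation p = 0.0181, padj = 0.103) and rho was 0.943 (exact permutation p = 0.0167, padj = 0.0930), with r = 0.932 without the 2 farthest. The part of slow-fibre content in the Atp2a2 differences was not tested. In bulk muscle, fewer fibres of a type and less RNA per fibre cannot be told apart.

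**Figure D3:**
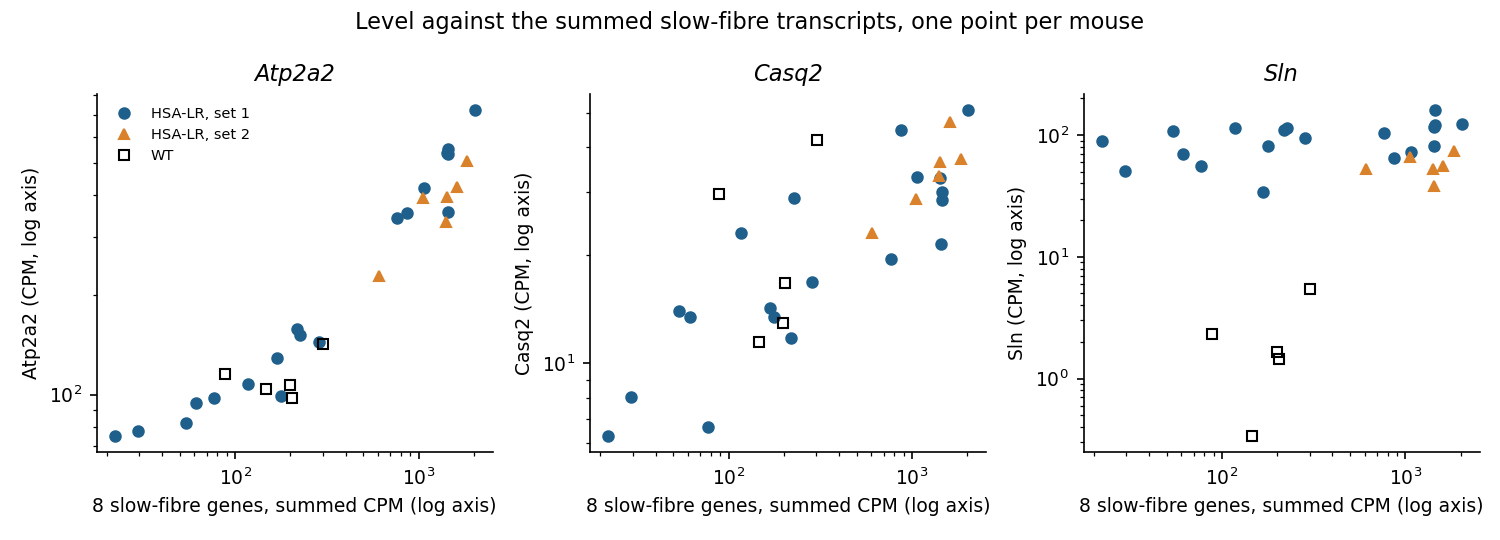
Atp2a2, Casq2 and Sln in CPM against the summed CPM of 8 slow-fibre genes, both on log axes, with 1 point per mouse, filled for HSA-LR (circles set 1, triangles set 2) and open squares for WT. Atp2a2 of HSA-LR mice climbs with the sum from 74.9 to 724 CPM, whereas their Sln stays between 33.7 and 161 CPM over the whole width.

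The slow-fibre list did not pass the gene-wise test in any comparison. In edgeR and in DESeq2, 0 of its 8 genes were past the threshold in each treated group against NT and in NT against WT, and 0 had an unadjusted p under 0.05. Of all tested genes, edgeR called 0 to 2.57% in the treated groups against NT and 4.97% in NT against WT. Of the 17518 tested genes, 182 to 2294 had an unadjusted p under 0.05 in the treated groups and 3771 in NT against WT. The log2 fold changes against NT were above 0 for all 8 genes in each treated group, with medians of 1.42, 1.04 and 1.55 at the 3 doses, 1.07 for free L9, 0.75 for Brush and 1.03 for pacDNA-Scr. In NT against WT the median was 1.05, with 7 of 8 genes above 0. The slow-fibre sum of NT mice averaged 229 CPM in set 1, with a median of 119, and 1017 CPM in set 2. WT mice, all in set 1, averaged 188 CPM with a median of 199. All 6 treated comparisons share the same NT mice, and levels spread widely inside the groups.

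Sln showed no such relation that passed adjustment. In the lower cluster of set 1 r was 0.198 (n = 11, permutation p = 0.565, padj = 0.814) and rho was 0.400 (permutation p = 0.226, padj = 0.563), with r = 0.129 without the 2 farthest mice. In the upper cluster r was 0.558 (n = 8, exact permutation p = 0.148, padj = 0.493) and rho was 0.786 (exact permutation p = 0.0279, padj = 0.124), with r = 0.554 without the 2 farthest mice. In set 2 r was 0.139 (n = 6, exact permutation p = 0.772, padj = 0.883) and rho was 0.429 (exact permutation p = 0.419), but r was 0.847 without the 2 farthest mice.

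Pump composition was put on 1 scale as the share of Atp2a2 in the counts per kb of exon of both pump genes. The share was small in every mouse. It averaged 0.230 ± 0.0748% in WT (SD, n = 5) and 0.359 ± 0.254% in NT (SD, n = 8). At 5.3 mg/kg it was 0.756 ± 0.322% (SD, n = 4, exact two-sided permutation p against NT = 0.0444), at 21.2 mg/kg 0.668 ± 0.336% (n = 3, exact permutation p = 0.133) and at 42.4 mg/kg 0.928 ± 0.698% (n = 3, exact permutation p = 0.0424). The highest dose differed from NT by 0.568 percentage points, and by 0.220 without 42.4 mg/kg C or 0.918 without A. None held after adjustment over the 18 comparisons of 3 ratios, in which the lowest padj was 0.145.

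The control agents had shares in the same range. They were 0.593 ± 0.154% with free L9 (n = 3, exact permutation p = 0.170), 0.657 ± 0.746% with Brush (n = 2, exact permutation p = 0.356) and 0.720 ± 0.584% with pacDNA-Scr (n = 2, exact permutation p = 0.111). The smallest p these designs allow is 0.00202 for 4 mice, 0.00606 for 3 and 0.0222 for 2 against 8. Single mice carried the differences from NT, which were −0.230 percentage points without Brush B and 0.825 without Brush A, and −0.0529 without pacDNA-Scr B and 0.773 without A. Brush B and pacDNA-Scr B are libraries of the other naming form. Within set 1 the differences were 0.345, 0.363 and 0.650 percentage points at the 3 doses.

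Counting error on such shares was narrow beside the spread between mice. In 42.4 mg/kg C, Atp2a2 took 2.90% of the raw counts of both pump genes, with a Wilson 95% interval of 2.86 to 2.95%. In 42.4 mg/kg A it took 0.411%, with an interval of 0.395 to 0.428%. These intervals cover counting error only.

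Sln per SERCA transcript, the log2 ratio of Sln to both pump genes per kb of exon, separated WT from HSA-LR mice. It was −11.96 ± 1.64 in WT (SD, n = 5) and −6.50 ± 0.58 in NT (SD, n = 8). Treated groups lay closer to NT than to WT, at −6.74 ± 0.54, −6.25 ± 0.52 and −5.72 ± 0.21 at the 3 doses. The last mean was above that of NT by 0.78, and by 0.54 within set 1. Its exact permutation p of 0.0485 (n = 3) did not pass adjustment (padj = 0.145). The means of the control agents were −5.95 ± 0.79 (free L9), −6.22 ± 0.16 (Brush) and −5.79 ± 0.15 (pacDNA-Scr). Their exact permutation p were 0.224, 0.622 and 0.111.

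**Figure D4:**
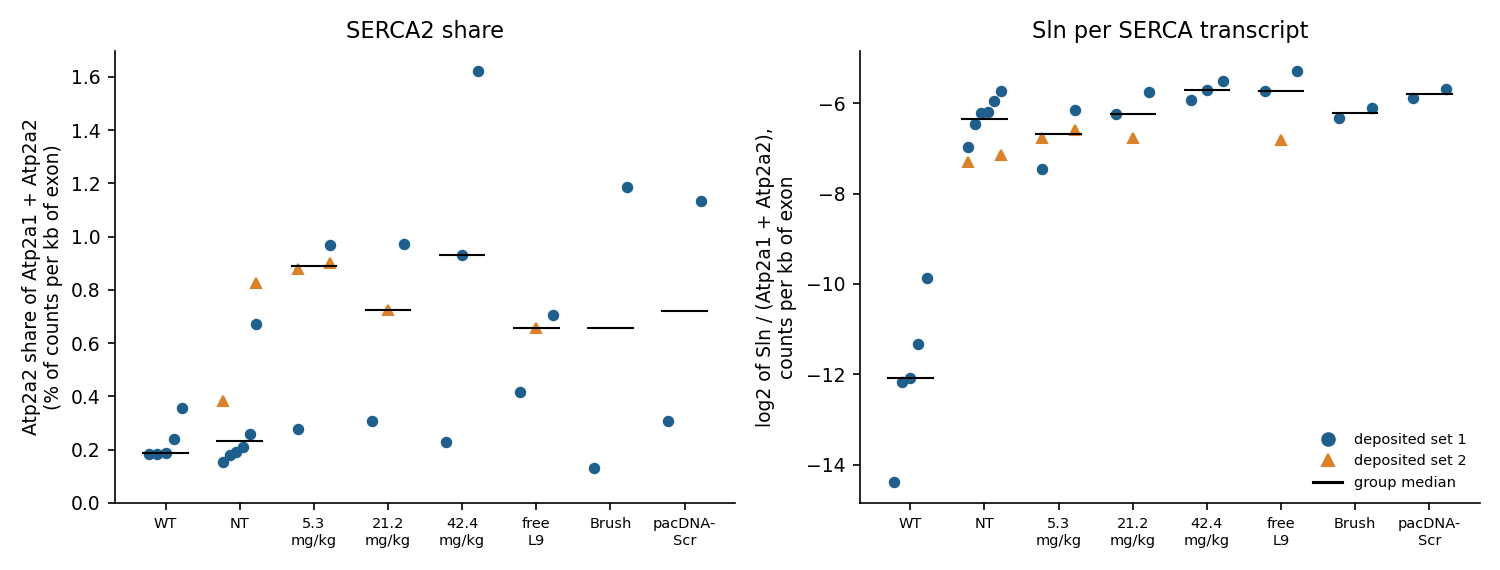
Share of Atp2a2 in both pump genes (left, percent of counts per kb of exon) and log2 ratio of Sln to both pump genes per kb of exon (right) in each mouse, with circles for deposited set 1, triangles for set 2 and lines at group medians. The share stays at or under 1.62% in all mice, and the ratio is at most −9.86 in WT and at least −7.45 in HSA-LR mice.

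In the store, Casq1 was the main calsequestrin transcript. It read 3282 ± 1207 CPM in WT (SD, n = 5) and 2504 ± 446 CPM in NT (SD, n = 8), with overlapping ranges and a log2 fold change of −0.39 (SE 0.18). The WT mean leaned on WT 1 at 5345 CPM, and without it the log2 fold change was −0.15. Treated mice ranged from 1572 to 3717 CPM, and log2 fold changes against NT lay between −0.32 at 21.2 mg/kg and 0.29 with free L9. With each mouse left out in turn, the former ran from −0.40 to −0.19 and the latter from 0.12 to 0.40.

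Casq2, the calsequestrin of slow fibres and heart, was far lower and varied more. WT mice read 29.6, 11.5, 12.9, 16.7 and 42.0 CPM, and NT mice 8.03 to 36.5 CPM with a median of 15.4. The groups overlapped, with a log2 fold change of −0.32 (SE 0.42) that turned to 0.03 without the unnumbered WT mouse. At 5.3 mg/kg Casq2 read 14.3, 44.6, 47.0 and 37.0 CPM, a log2 fold change against NT of 0.98 (SE 0.44) with an unadjusted p of 0.0343 and a padj of 1.00 in edgeR.

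Of these mice, 5.3 mg/kg B, C and D exceeded every NT mouse and A lay inside the NT range. At 21.2 mg/kg the values were 33.1, 28.9 and 33.2 CPM (log2 fold change 0.81, SE 0.48) and at 42.4 mg/kg 23.1, 28.5 and 50.9 CPM (0.92, SE 0.48, padj = 0.403). Free L9 mice read 29.9, 6.62 and 28.6 CPM (0.26), Brush mice 6.26 and 21.5 CPM (−0.38) and pacDNA-Scr mice 11.8 and 32.9 CPM (0.31). The control agents thus had mice both under and over the NT median, and no comparison passed the threshold. Without Brush A the Brush value was 0.24 and without Brush B −1.54, and without pacDNA-Scr B the pacDNA-Scr value was −0.62. The value at 42.4 mg/kg was 0.51 without C and 0.30 with the naming covariate, and that of free L9 was −0.07 without A, 0.67 without B and 0.01 without C.

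The Casq2 share of both calsequestrin genes, per kb of exon, was 0.801 ± 0.413% in NT (SD, n = 8) and 0.818 ± 0.653% in WT (SD, n = 5). It was 1.77 ± 1.03% (n = 4, exact permutation p = 0.0323), 1.73 ± 0.373% (n = 3, exact permutation p = 0.0182) and 1.86 ± 0.948% (n = 3, exact permutation p = 0.0242) at the 3 doses, each with a padj of 0.145. All 3 means were above the NT mean by more than the NT SD, yet none passed adjustment. Within set 1 the differences were 1.14, 1.13 and 1.19 percentage points. Without 42.4 mg/kg C the difference of the highest dose was 0.538. The control agents had shares of 0.771 ± 0.482% (free L9), 0.618 ± 0.429% (Brush) and 0.969 ± 0.648% (pacDNA-Scr), and their exact permutation p were 0.933, 0.622 and 0.778. The pacDNA-Scr difference of 0.168 points turned to −0.290 without pacDNA-Scr B and was 0.626 without A.

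The relation of Casq2 to the slow-fibre sum did not pass adjustment in any cluster. In the lower cluster r was 0.683 (n = 11, permutation p = 0.0213, padj = 0.107) and rho was 0.645 (permutation p = 0.0368, padj = 0.147), but r was 0.404 without the 2 farthest mice. In the upper cluster r was 0.357 (n = 8, exact permutation p = 0.386, padj = 0.662) and rho was 0.262 (exact permutation p = 0.536, padj = 0.803), with r = 0.519 without the 2 farthest mice. In set 2 r was 0.887 (n = 6, exact permutation p = 0.0153, padj = 0.102) and rho was 0.943 (exact permutation p = 0.0167, padj = 0.0930), but r was 0.352 without the 2 farthest mice. The share of slow-fibre content in the Casq2 differences was not tested.

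The release channel gene Ryr1 differed little between groups. It read 5294 ± 1256 CPM in WT (SD, n = 5) and 4445 ± 1018 CPM in NT (SD, n = 8), with overlapping ranges and a log2 fold change of −0.25 (SE 0.23). Treated mice ranged from 1961 CPM in free L9 B to 6606 CPM in pacDNA-Scr A, and log2 fold changes against NT lay between −0.29 and 0.24. Values of small groups shifted with single mice, to 0.50 at 21.2 mg/kg without C, −0.70 for free L9 without C, −0.15 for Brush without A and 0.57 for pacDNA-Scr without B. Over the alternatives run, the value at 42.4 mg/kg went from −0.19 to 0.39. That of free L9 went from −0.78 to 0.24, so both changed sign. Genes on the opposite strand cover 6.62% of its exon bases.

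Pvalb, the parvalbumin gene, was the next most abundant of the set after Atp2a1 per length of exon. It read 11174 ± 3400 CPM in WT (SD, n = 5) and 9259 ± 1703 CPM in NT (SD, n = 8), with a log2 fold change of −0.27 (SE 0.26), and −0.10 without WT 1. Its lowest values were 3244 CPM in free L9 B and 4695 CPM in 21.2 mg/kg A, and the highest in HSA-LR mice was 16306 CPM in free L9 A. The 3 mice at 21.2 mg/kg read 4695, 6225 and 9097 CPM, all under the NT median of 9287 CPM, and the log2 fold change against NT was −0.47 (SE 0.32), not past the threshold. It was −0.27 without 21.2 mg/kg A, −0.76 without C and −0.80 within set 1. With free L9 it was 0.02 (SE 0.31), −0.67 without free L9 A and 0.41 without B.

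Per kb of exon, the median levels in NT mice ran in the order Atp2a1 (4050 CPM per kb), Pvalb (2491), Casq1 (399), Ryr1 (203), Sln (49.3), Mrln (17.9), Atp2a2 (9.92), Casq2 (2.70), Pln (0.139) and Strit1 (0.0728). Neighbouring ranges of NT mice overlapped between Casq1 and Ryr1, between Mrln and Atp2a2, between Atp2a2 and Casq2 and between Pln and Strit1. In WT mice Sln stood lower in the order, at 1.08 CPM per kb, under Casq2 at 2.92 CPM per kb.

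Over the whole set, 0 of the 10 genes were past the threshold in any treated group against NT, by edgeR or by DESeq2. The share of all tested genes past it was 0%, 0.0514% and 2.57% at the 3 doses in rising order and 0.126%, 0% and 0% for free L9, Brush and pacDNA-Scr. At an unadjusted p under 0.05 the counts were 1, 0, 1, 1, 0 and 0 genes in that order, beside 250, 290, 2294, 1641, 217 and 182 of the 17518 tested genes. The lowest padj of the set was 0.344 at 42.4 mg/kg and 0.452 with free L9. The shares of all tested genes do not isolate dose. Every library at 42.4 mg/kg is in deposited set 1 and has the other naming form. Those at 5.3 and 21.2 mg/kg come from both deposited sets, and none has that form. A p that misses the threshold does not show that a level was the same, and the SE of Sln was 0.41 to 0.51 on the log2 scale in these comparisons.

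The median log2 fold change of the 10 genes was −0.02, 0.14 and −0.02 at the 3 doses, where that of all tested genes was 0.03, 0.01 and −0.06. With free L9, Brush and pacDNA-Scr it was 0.31, 0.06 and 0.27, against −0.00, −0.04 and −0.03 for all tested genes. In NT against WT it was −0.13 against 0.03. These comparisons share their NT mice.

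**Figure D5:**
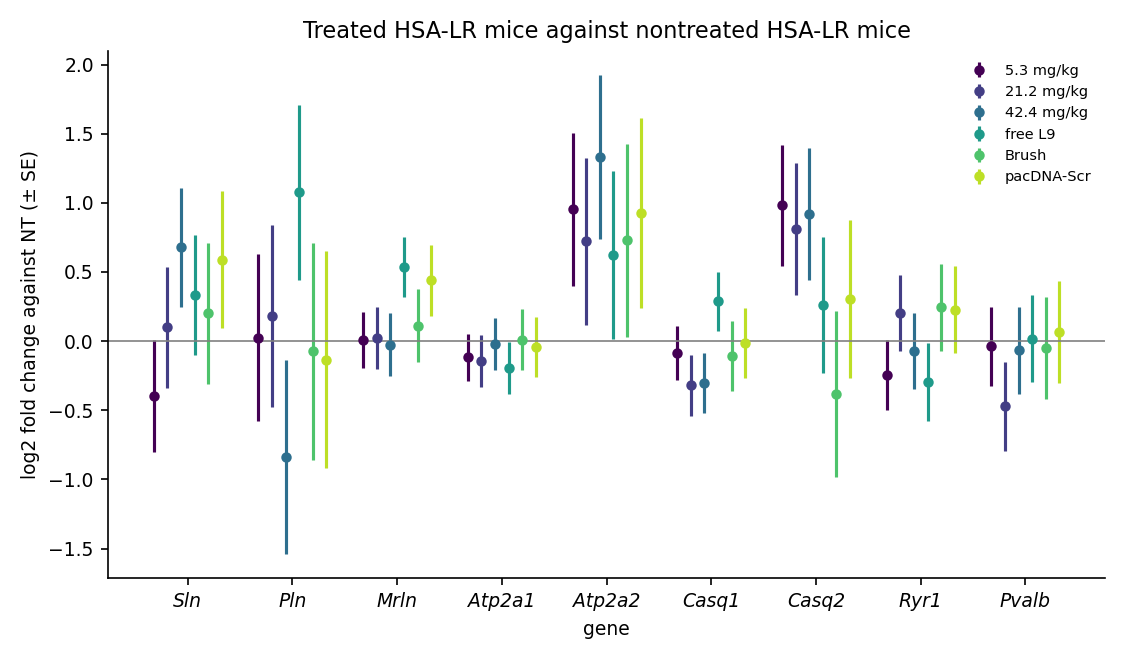
Log2 fold change against NT with its SE for 9 genes of the set in each of 6 treated groups, from the edgeR model over 30 libraries. Sln lies between −0.40 and 0.68, Atp2a2 is above 0 in all 6 groups at 0.62 to 1.33, and Strit1 is left out for its low counts.

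A list of 46 other calcium-handling genes, 1 of them under 2 names, was examined beside the set, and 44 were tested. In NT against WT, 5 of the 44 were past the threshold, 3 higher and 2 lower, beside 4.97% of all tested genes, 3.44% higher and 1.54% lower. The list's median log2 fold change was −0.03 against 0.03 over all tested genes. Tmem38b (chr4:53825984-53862026), a potassium channel of the reticulum that supports calcium release, was higher in NT, at 86.2 to 125 CPM against 62.5 to 71.1 CPM in WT (log2 fold change 0.61, SE 0.11, edgeR padj = 0.000826). Each NT mouse was above each WT mouse.

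Micu2 (chr14:58153706-58236767), a regulator of mitochondrial calcium uptake, and Cacng1 (chr11:107591493-107607408), a subunit of the muscle calcium channel, were also higher in NT. Their log2 fold changes were 0.52 (SE 0.12, edgeR padj = 0.00840) and 0.84 (SE 0.22, edgeR padj = 0.0210). The call of Micu2 was lost with library size alone as the normalization (0.47, padj = 0.0603). That of Cacng1 was lost without WT 2 (0.82, padj = 0.0566), without the unnumbered WT mouse (0.75, padj = 0.0719) and without the 9 libraries of the other naming form (0.67, padj = 0.0575).

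Of the lower genes, Calm3 (chr7:16649290-16658156), a calmodulin gene, read 248 to 395 CPM in NT against 337 to 622 CPM in WT. Its log2 fold change was −0.66 (SE 0.16, edgeR padj = 0.0109), and its call was lost within set 1 (−0.58, padj = 0.0535), without the 5 libraries with mitochondrial zeros (−0.59, padj = 0.0528) and without WT 3 (−0.58, padj = 0.0525). The size of these log2 fold changes stayed close to that over all libraries. The ranges of Calm3 overlapped through the unnumbered WT mouse, at 337 CPM.

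Against NT, 1 gene of the 44 was past the threshold at 42.4 mg/kg, beside 2.57% of all tested genes. Calm2 (chr17:87740829-87754363), another calmodulin gene, read 95.8, 64.8 and 83.8 CPM against 128 to 189 CPM in NT (log2 fold change −0.91, SE 0.19, edgeR padj = 0.00613). WT mice read 133 to 190 CPM. Single mice of other groups were low as well, with 5.3 mg/kg B at 95.6 CPM, Brush A at 100 CPM and 21.2 mg/kg A at 125 CPM. The call was lost without 42.4 mg/kg B (log2 fold change −0.77, padj = 0.158). In edgeR, 0 of the 44 genes were past the threshold in the other treated groups, and 0 in DESeq2. Their counts at an unadjusted p under 0.05 were 6 with free L9, beside 1641 of all 17518 tested genes, 1 at each of the lower doses, beside 250 and 290, and 0 with either polymer control, beside 217 and 182.

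Other marker lists gave further background on the tissue. Of 5 markers of immature fibres, Myod1 was the most abundant, and the sum ran from 49.6 CPM in WT 2 to 183 CPM in 5.3 mg/kg D. Of 4 adipocyte markers, led by Plin1, the sum ran from 7.08 CPM in NT 2 to 347 CPM in free L9 B. The sum of 4 macrophage markers, led by Csf1r, was 12.5 to 25.7 CPM in WT and 24.0 to 34.1 CPM in NT. It was 42.0 to 50.9 CPM at 5.3 mg/kg, 36.2 to 69.5 CPM at 21.2 mg/kg, 57.6 to 79.4 CPM at 42.4 mg/kg and 54.7 and 55.2 CPM in Brush mice, all above every NT mouse. Free L9 mice, at 20.1 to 29.1 CPM, and pacDNA-Scr mice, at 31.6 and 37.7 CPM, overlapped NT. Adgre1 was at 0 in 1 library. The sum of the spindle markers Myh6 and Myh7b, which the cardiac and slow-fibre lists also hold, ran from 0.666 CPM in Brush A to 116 CPM in 42.4 mg/kg C and so moved with Atp2a2. The part of these cell types in the results above was not tested.

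The genes whose levels were most like those of Sln over the 24 libraries of set 1, among 9352 genes with a mean of at least 5 CPM, were Ttc9 (Pearson r = 0.973), Uchl1 (0.963), Myo1a (0.953), Sbk2 (0.944) and Plekho1 (0.943). These r describe libraries in which WT and HSA-LR mice form separate clusters for Sln, and within the 19 HSA-LR libraries 0 of the 5 were again among the top 5. For Atp2a2 they were Tpm3 (0.972), Tpm3-rs7 (0.925), Tnnc1 (0.891), Myh6 (0.890) and Tnnt1 (0.885), and 4 of the 5 came back within HSA-LR libraries. These r span the lower and upper slow-fibre clusters of set 1. Tpm3-rs7 is a near copy of Tpm3, so its reads are uncertain. For Pvalb they were Slc37a4 (0.912), Cib2 (0.903), Gamt (0.901), Hras (0.879) and Chtop (0.877), and 0 of the 5 came back.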

How the data were processed

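RNA from quadriceps of 30 mice was sequenced with paired 150 bp reads. According to the submitters' processing notes, reads were mapped with HISAT2 2.0.5 to GRCm39, and the authors deposited unnormalized counts of every gene. The counter's strand and multi-mapping options are not given in the sources used here. Libraries were assigned to groups and replicates from their labels, and no 2 libraries of the same group agreed within sampling noise. Gene names, exon lengths and coding sequences came from GENCODE vM39 on GRCm39, which named 56017 of 56748 genes.

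Counts were analysed in R 4.3.3 with edgeR 4.0.16 (filterByExpr, TMM, robust quasi-likelihood fit, 8 group coefficients, all libraries), with adjusted p-values by Benjamini-Hochberg over 17518 genes and a threshold of 0.05. The SE was the log2 fold change divided by the square root of F. Ratios were compared by exact two-sided permutation of mice, adjusted over 18 comparisons. Shares of counts in single libraries had Wilson 95% intervals, and correlations used scipy 1.17.1. The fitting script was tested on simulated data. Mice are taken as replicates from the labels, so the p-values measure the spread between these libraries. The main model and the permutations had no term for deposited set. In NT, free L9 and the lower doses, which hold mice of both sets, that spread includes the difference between the sets.

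The genes named were all 10 of the set, genes of the calcium-handling list past the threshold (for NT against WT at most the 3 largest in each direction), the 5 genes most similar to Sln, Atp2a2 and Pvalb (log2 CPM, prior count 2), and the most abundant or undetected genes of each marker list. Of the genes under this rule, 1 is not described in the text. The set and the lists were chosen with earlier results of these data known. Of the calcium-handling list, Erln and Fkbp1b failed the filter and an older name of Arln had no entry of its own. Alternatives were other size factors, library size alone, no filter, DESeq2 1.42.0, set 1 only, libraries without mitochondrial zeros, covariates for set, sex or naming form, only the groups compared, a replicate block, each mouse left out, and other lengths for ratios. The canonical transcript length, leaving out the 9 libraries of the other naming form and the correlations were added after the data were seen.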

Additional observations from a re-analysis of the deposited data

Results flagged for a closer look

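A single mouse stood far from the others of its group in 4 of the 39 groups of values examined (groups of 4 to 8 mice), and chance alone gives such a gap in about 1 in 20 groups. Strit1 read 0.205 CPM in the unnumbered WT mouse and 0 in the other WT mice, which is 4 counts, and with all others at 0 any count would have been flagged. Ryr1 read 6581 CPM in NT 2, where the next highest NT mouse read 4695 CPM. The share of Atp2a2 in both pump genes was 0.276% in 5.3 mg/kg A, and the next lowest mouse of that dose had 0.878%. The Casq2 share was 1.98% in the unnumbered WT mouse, against 0.609% in the next highest WT mouse. No cause was tested.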

How the results depend on the processing

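The count of genes of the set past the threshold was 0 of 10 in each treated group against NT under every alternative that was run. In NT against WT it was 1 of 10 throughout, which the choice of the set fixed and which is no sign of stability. Sln in NT against WT ran from 4.78 to 5.81 on the log2 scale. The log2 fold change of Atp2a1 in NT against WT, near 0, ran from −0.10 to 0.04 and so changed sign. That of Atp2a2 ran from −0.14 to 0.81 and was under 0 over WT 1 to 4 and NT 1 to 4, with and without a replicate block. That of Casq2 ran from −0.67 to 0.03 and changed sign without the unnumbered WT mouse and without the 9 libraries of the other naming form. Of the calcium-handling list at 42.4 mg/kg, DESeq2 called 3 genes where edgeR called 1.

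Of the 3 ratios, several differences from NT moved by more than the SD of the NT mice, though often by less than the SD of the treated group. With counts not divided by exon length, the difference in the SERCA2 share was 0.712 percentage points at 5.3 mg/kg, 0.646 with pacDNA-Scr and 1.02 at 42.4 mg/kg. With the length of the canonical transcript it was 0.666 for the lowest dose and 0.950 for the highest, and the difference in the Casq2 share was 0.355, 0.338 and 0.389 at the 3 doses. A change of length rescales each share by construction. Without the 9 libraries of the other naming form, the SERCA2 share differed by −0.185 with Brush and −0.00825 with pacDNA-Scr, the Casq2 share by 0.453 with free L9 and Sln per SERCA by −0.25 on the log2 scale with free L9. This and the canonical length were chosen after seeing the data, and the cause was not tested. The first of these leaves 1 mouse in some groups and 0 at 42.4 mg/kg.

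With each mouse left out in turn, the SERCA2 share differed from NT by 0.220 to 0.918 at 42.4 mg/kg, −0.230 to 0.825 with Brush and −0.0529 to 0.773 with pacDNA-Scr. At 21.2 mg/kg it differed by 0.156 to 0.489. The Casq2 share differed by 0.556 to 1.34 at 5.3 mg/kg and 0.538 to 1.47 at 42.4 mg/kg. With the control agents it differed by −0.244 to 0.231 (free L9), −0.487 to 0.120 (Brush) and −0.290 to 0.626 (pacDNA-Scr). Sln per SERCA with free L9 differed by 0.22 to 0.98 on the log2 scale. The cause was not tested.

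The labels number WT and NT mice alike from 1 to 5, and for 1 to 4 the label names the count column in both groups. Deviations of same-numbered mice correlated at 0.164, −0.0468, 0.113 and 0.192, and mice 1, 3 and 4 of each group correlated best with their own number while WT 2 and NT 2 did not. This is a hint from the data, not the design, and no pairing was taken from it. A replicate block called 631 genes in NT against WT and the same 8 mice without it 680. With the block, 1 of the 10 genes was past the threshold, and the log2 fold change of Sln was 5.81. The call of Micu2 was lost with the block as well (0.45, padj = 0.0519). Low counts limit Strit1 and Pln, with at most 32 and 75 per library, and groups of 2 to 4 mice limit all treated comparisons.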
